A study of Saccharomyces cerevisiae with 12 samples.

Results

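The response to Congo Red was examined in budding yeast, Saccharomyces cerevisiae, that carries a mutation of GCN5. Members were the 6 arrays of the gcn5 mutant out of 12 in the study, 3 with Congo Red and 3 untreated, chosen by their titles. The gcn5 mutant and the wild type share the BY4741 background, a haploid laboratory strain with several auxotrophic markers. Each culture was grown in rich YPD medium and divided. One portion received 30 µg/ml of Congo Red for 3 h, and the other was kept for the same time without the dye. The groups are therefore the gcn5 mutant with Congo Red, the untreated gcn5 mutant, wild type with Congo Red and untreated wild type, with 3 Affymetrix arrays each. Equal replicate numbers were taken as portions of a single culture, so each Congo Red array of the mutant was set against the untreated array of its own number. The labels do not say how the mutation was made or how many isolates were used.

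Gcn5 is the histone acetyltransferase of the coactivator complexes SAGA and ADA, which help transcription factors to start transcription of inducible genes. Congo Red binds chitin and glucan, the fibres of the yeast wall, and hinders their assembly. Wall damage is sensed by plasma membrane proteins of the Wsc and Mid2 families, which act through the GTPase Rho1 and protein kinase C on a MAP kinase cascade. Its last kinase, Slt2, activates the transcription factor Rlm1, whose known targets include wall proteins and enzymes that build glucan and chitin.

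GCN5 (YGR252W) was read first, as a check of the labels. Its log2 level was 3.61, 3.02 and 3.55 in the mutant with Congo Red and 3.72, 4.08 and 3.36 in the untreated mutant. In wild type the same probe set read 8.20 to 8.30 with Congo Red and 8.13 to 8.33 untreated. The 6 mutant values lay at or near log2 4, the floor used here for a measured signal. The 5 measured a-cell genes, which mark the mating type of this background, were above that floor on all 6 mutant arrays. They lay between 7.55 and 11.63 with Congo Red and between 6.47 and 11.74 untreated. In wild type their ranges were 10.11 to 12.5 with Congo Red and 10.05 to 12.62 untreated. MFA1 and BAR1 were lower on every mutant array than on any wild type array, with highest mutant values of 8.44 and 8.49. The cause of this was not tested. Of 4 alpha-cell genes, MF(ALPHA)1, which encodes the alpha pheromone, was below the floor on all 6. The other 3, SAG1, MF(ALPHA)2 and STE3, were above it on all 6 mutant arrays and also on all 6 wild type arrays, so the alpha-cell list as a whole was not at the floor. In the mutant SAG1 reached 8.44 with Congo Red and 8.32 untreated, close to the highest values of MFA1 and BAR1 there. Being above the floor therefore does not separate the mating types on these arrays. The log2 summed signal of the 4 alpha-cell genes ran from 8.52 to 8.76 with Congo Red and from 8.42 to 8.68 untreated. Array medians over the series ran from 8.98 to 9.05.

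Untreated and Congo Red arrays of mutant culture 3 stood apart from those of cultures 1 and 2. In Congo Red, 184 genes on the culture 3 array differed at least 2-fold from the mean of the other 2 arrays, and 193 did so without the dye. The same count was 49 and 49 for the other Congo Red arrays and 55 and 42 for the other untreated ones. In culture 3 the median iron uptake gene lay 1.48 log2 units above the other cultures with Congo Red and 1.20 above them untreated. The median respiratory chain gene lay 0.85 below them with Congo Red (-0.85) and 0.93 below them untreated (-0.93). ARN2, a siderophore iron transporter, shows the gap, at 8.27, 8.80 and 12.88 with Congo Red and 8.98, 9.37 and 13.17 untreated. CYC1, which encodes cytochrome c, had 9.42, 9.35 and 6.48 with Congo Red and 9.12, 8.98 and 5.67 untreated. Both portions of culture 3 differed in the same direction, and 69 of the 212 calls described next did not pass without culture 3. Where such a call is of a gene named below, this is said beside it. In bulk RNA, fewer cells of a kind and less RNA per cell cannot be told apart.

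Congo Red raised 150 of the 5345 genes tested in the mutant (2.81%) and lowered 62 (1.16%), by limma with the culture as a block and an adjusted p under 0.05. Both directions together gave 212 genes (3.97%). A rise of 2-fold or more was reached by 18 (0.337%), and a fall of that size by 1 (0.0187%). All 212 moved the same way in the 3 cultures, as did 43.0% of all genes tested. The calls rest on these same differences, so the shared sign largely follows from passing and is not separate support. The groups did not overlap for 125 of the 150 rises and 36 of the 62 falls, and over all genes this was 5.99% upward and 7.95% downward. The smallest called rise was 0.31 log2 units and the smallest called fall -0.30. The median change over all genes was -0.03. Without a block the calls numbered 58 higher and 4 lower. They numbered 28 higher and 1 lower without mutant culture 1, 83 and 22 without culture 2, and 123 and 61 without culture 3. Across the 5345 genes the paired changes of mutant cultures 1 and 2 correlated at 0.68, those of 1 and 3 at 0.56 and those of 2 and 3 at 0.29. The lower count was 29 without wild type culture 2 and 98 without wild type culture 3, since the wild type arrays share in the estimate of spread. Without culture 3, 6 genes were at least 2-fold lower. Calls held in each fit without a mutant culture for 28 rises and for 1 fall, that of WSC4.

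**Figure D1:**
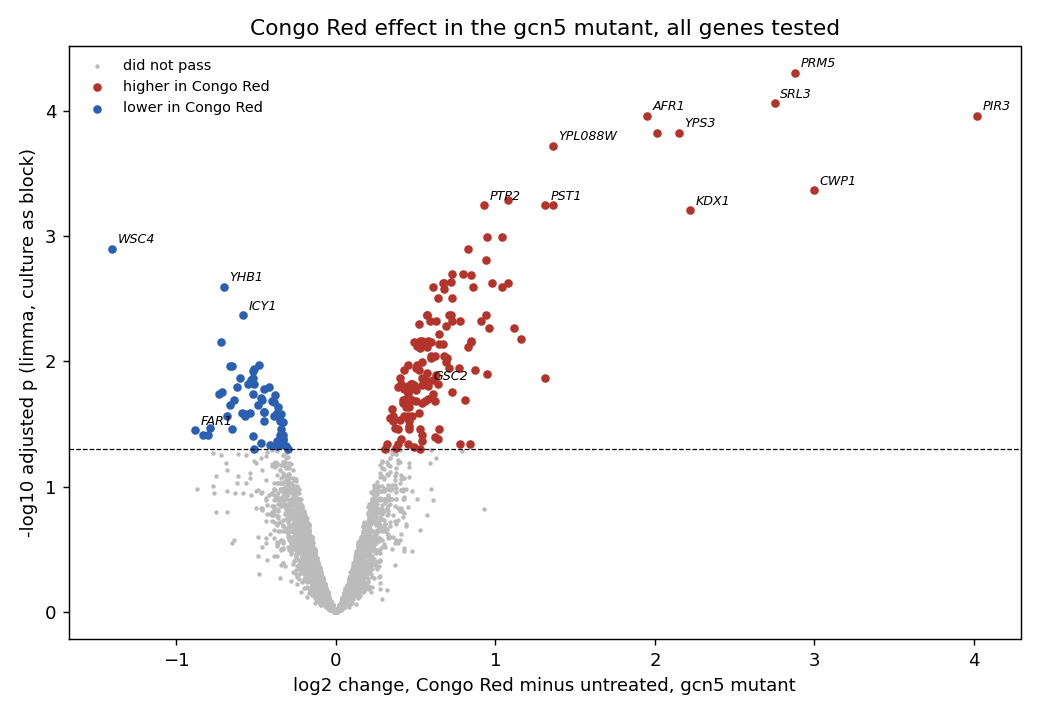
Each point is a gene, with its log2 change in the gcn5 mutant (Congo Red minus untreated) on the x axis and the -log10 adjusted p on the y axis; the dashed line marks 0.05. The 150 red points to the right include PIR3 at 4.02, and among the 62 blue points only WSC4 lies beyond -1.

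The largest rises were in genes of the wall and of the integrity pathway. PIR3, which encodes a wall protein linked covalently to glucan, had log2 levels of 11.32, 10.95 and 8.82 with Congo Red, against 6.59, 6.86 and 5.60 untreated. The lowest treated array was above the highest untreated one, and the mean rise of the 3 cultures was 4.02 ± 0.24 log2 units (SE; 16.2-fold, limma adjusted p = 1.1e-04). Here and below the SE is that of the limma fit, which pools the spread of both strains. It is not the spread of the 3 mutant differences alone, which can be wider where culture 3 departs. By culture the difference of PIR3 was 4.73, 4.10 and 3.22. CWP1, a mannoprotein attached through a GPI remnant, read 12.77, 12.62 and 11.56 with Congo Red, against 10.24, 10.03 and 7.69 untreated. Its levels overlapped in no array, and it rose by 3.00 ± 0.23 (SE; 7.99-fold, limma adjusted p = 4.3e-04). The differences of CWP1 were 2.53, 2.59 and 3.88, largest in culture 3, where those of PIR3 were smallest.

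PRM5, a membrane protein gene known as an Rlm1 target, had 10.90, 11.02 and 10.16 with Congo Red, against 7.76, 7.97 and 7.71 untreated, and had the smallest p of all genes (7.35-fold, limma adjusted p = 5.0e-05). SRL3 read 10.09, 9.86 and 10.18 with Congo Red, against 7.14, 7.13 and 7.62 untreated (6.72-fold, limma adjusted p = 8.7e-05). Neither gene's groups overlapped, and SRL3 differed by 2.95, 2.74 and 2.56 in cultures 1 to 3. KDX1, which encodes a relative of the MAP kinase Slt2, had 9.39, 9.42 and 8.83 with Congo Red, against 6.89, 6.93 and 7.16 untreated (4.65-fold, limma adjusted p = 6.2e-04). YPS3, a GPI-anchored aspartic protease gene, had 9.13, 9.20 and 8.42, against 6.88, 6.80 and 6.62 untreated (4.44-fold, limma adjusted p = 1.5e-04). CRG1, a methyltransferase gene, had 10.25, 10.17 and 9.62 with Congo Red, against 7.97, 8.07 and 7.98 untreated (4.02-fold, limma adjusted p = 1.5e-04). For KDX1, YPS3 and CRG1 the treated array of culture 3 was the lowest of the 3, while all 9 untreated values of these genes lay below every treated one of the same gene.

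AFR1, which shapes the mating projection, followed with 8.91, 8.95 and 7.94 with Congo Red, against 6.98, 6.71 and 6.26 untreated (3.85-fold, limma adjusted p = 1.1e-04). PRM10, a membrane protein gene induced by pheromone, rose 2.58-fold and PST1, a GPI-anchored wall protein gene, 2.48-fold. YPL088W, thought to encode an aryl alcohol dehydrogenase, rose 2.57-fold. YPL088W was even across arrays, at 9.46, 9.40 and 9.32 with Congo Red and 8.01, 8.02 and 8.07 untreated. The calls of PIR3, CWP1, PRM5, SRL3, KDX1, YPS3, CRG1, AFR1, PRM10, YPL088W and PST1 held without any single culture of either strain.

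**Figure D2:**
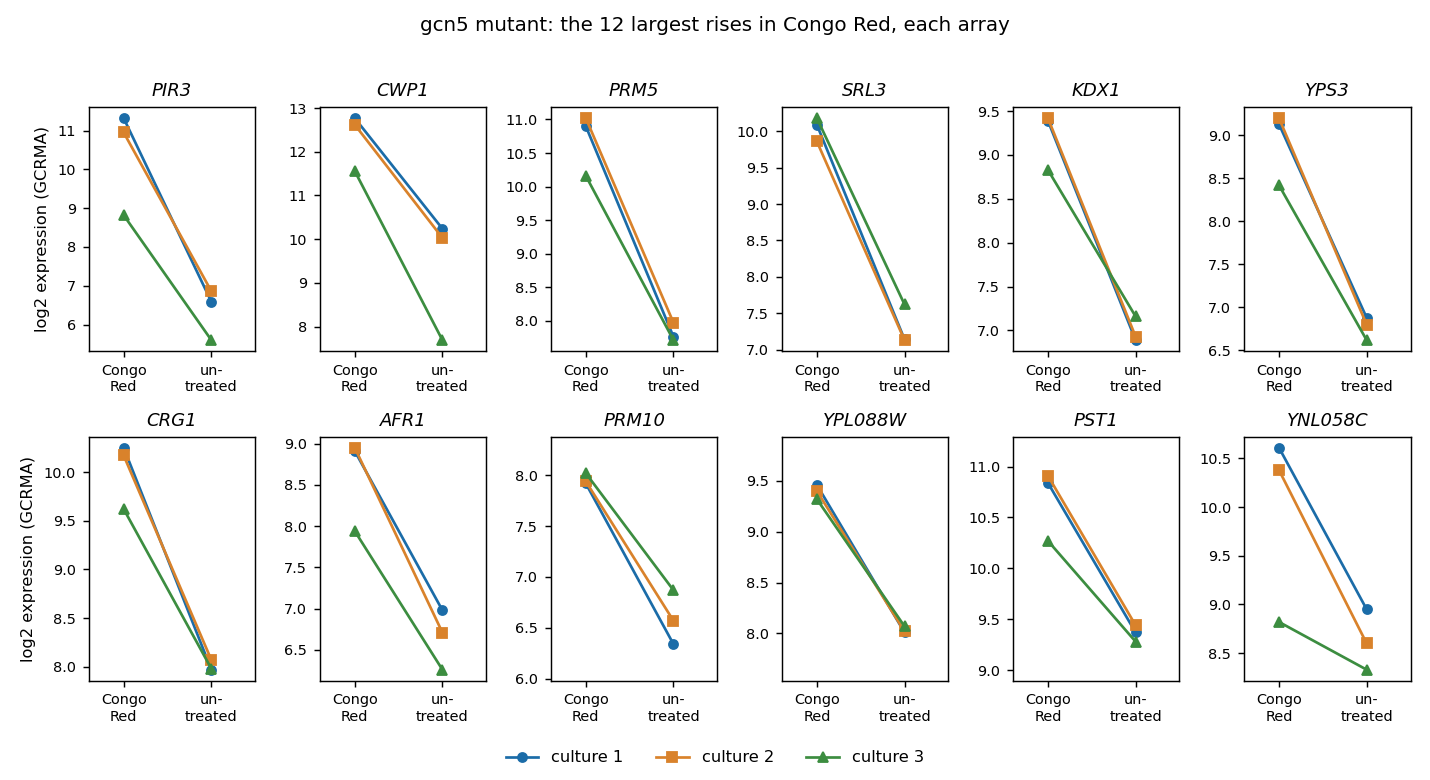
Log2 expression of the 12 largest rises on each mutant array, Congo Red left and untreated right, with a line joining the portions of a culture; each panel has its own y axis. All lines slope down to the untreated side, and the green line of culture 3 lies low for CWP1 (11.56 with Congo Red and 7.69 untreated).

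The remaining rises of the leading 20 lay near 2-fold. YNL058C had 10.61, 10.38 and 8.82 with Congo Red, against 8.95, 8.60 and 8.33 untreated. Its groups overlapped, and culture 3 gave a difference of 0.49, against 1.65 and 1.77 in cultures 1 and 2 (mean 1.31 ± 0.22, SE; limma adjusted p = 0.0135). YNR065C, a sortilin homologue, rose 2.23-fold, YCR099C 2.17-fold, YKL107W 2.12-fold and DIA1, a gene of invasive growth, 2.11-fold. The last genes above 2-fold were PUN1, a plasma membrane protein gene, at 2.06-fold and KTR2, a mannosyltransferase gene, at 2.05-fold. Just below it stood GFA1 (1.98-fold), YJL107C (1.95-fold), GDE1, a phosphodiesterase gene of phospholipid turnover (1.94-fold), the mitochondrial gene FMP33 (1.93-fold), CHS1 (1.92-fold) and the protein kinase gene YPK2 (1.92-fold). Without mutant culture 1, 6 of these lost their call, YCR099C, YPK2, YJL107C, YNR065C, FMP33 and YNL058C (adjusted p from 0.0511 to 0.124). Without culture 2, YNL058C (adjusted p = 0.0683) and FMP33 (adjusted p = 0.0687) did so.

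The list of known integrity response genes was the one with the largest share of rises. Of its 22 measured members 19 rose and 0 fell, 86.4% against 2.81% of all genes tested. The median change was 0.90 log2 units, against -0.03 over all genes. Like the other lists it was chosen with earlier results of these data known, so the share is not independent support. PTP2, which encodes a phosphatase of MAP kinases, had 10.13, 10.02 and 10.13 with Congo Red, against 9.03, 9.13 and 9.32 untreated (0.93 ± 0.08, SE). PUN1 had 10.60, 10.50 and 10.47, against 9.40, 9.40 and 9.65 untreated. In both genes all treated arrays were above all untreated ones. SLT2, the MAP kinase gene, rose by 0.85 ± 0.12 (SE; limma adjusted p = 0.00682) and RLM1, the gene of its transcription factor, by 0.60 ± 0.08 (SE; limma adjusted p = 0.00694). The smallest rises of the list were those of HSP150, at 0.43 ± 0.08, and CIS3, at 0.40 ± 0.07 (SE), which encode relatives of Pir3. PIR1, the remaining member of that family in the list, had 12.46, 12.66 and 11.59 with Congo Red, against 12.24, 12.31 and 12.01 untreated. It did not pass (0.05 ± 0.14, SE; limma adjusted p = 0.88).

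SED1, an abundant GPI-anchored wall protein, did not pass narrowly, at 13.62, 13.55 and 13.22 with Congo Red and 13.11, 13.09 and 11.83 untreated (0.79 ± 0.18, SE; limma adjusted p = 0.0513). The glucan endotransferase gene BGL2 had a change of 0.29 ± 0.07 (SE; limma adjusted p = 0.0636), with groups that did not overlap. In the response list, 8 members lost their call without mutant culture 1, GSC2, SLT2, BAG7, RLM1, CHS3, CRH1, CIS3 and HSP150 (adjusted p from 0.0653 to 0.212). Without culture 2, 5 did so, GSC2, CRH1, BAG7, CIS3 and HSP150 (adjusted p from 0.0527 to 0.103), and without wild type culture 2, HSP150 (adjusted p = 0.0527).

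Among components of the pathway itself, from sensors to transcription factors, 7 of 30 rose (23.3%, against 2.81% of all genes). In the same list 1 fell (3.33%, against 1.16%), and the median change was 0.05. The sensor genes differed from each other. WSC4, which encodes a Wsc family sensor, had 7.84, 8.45 and 6.78 with Congo Red, against 9.68, 9.77 and 7.81 untreated. The groups overlapped because culture 3 was low with and without the dye, but each culture fell, by 1.84, 1.31 and 1.03 log2 units (-1.84, -1.31 and -1.03). The mean was -1.40 ± 0.14 (SE; 2.63-fold lower, limma adjusted p = 0.00126), the largest fall of all genes tested. That call was lost without the culture block (adjusted p = 0.545).

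MID2 had 9.75, 9.63 and 9.94 with Congo Red, against 9.31, 9.09 and 9.43 untreated, and rose by 0.50 ± 0.08 (SE; limma adjusted p = 0.0112). Its relative MTL1 had 6.58, 6.64 and 6.67, against 6.25, 6.25 and 6.07 untreated, and rose by 0.44 ± 0.08 (SE; limma adjusted p = 0.0232). Both thus moved opposite to WSC4. The remaining sensor genes, named to complete the set after their values were seen, did not pass, with changes of 0.17 ± 0.09 for WSC3, -0.05 ± 0.08 for WSC2 and -0.20 ± 0.09 for SLG1, the file's name for WSC1 (SE).

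Downstream of the sensors, RHO1 had a change of 0.24 ± 0.07 (SE; limma adjusted p = 0.0964) and the exchange factor gene ROM1 one of 0.25 ± 0.09 (SE; limma adjusted p = 0.151). BAG7, a GTPase activating protein gene for Rho1, had 4.76, 4.84 and 4.81 with Congo Red, against 4.09, 3.99 and 4.19 untreated, so it rose by 0.71 ± 0.11 (SE) from a signal at the floor. MSG5, a phosphatase gene of Slt2, did not pass (0.32 ± 0.11, SE; limma adjusted p = 0.152). Without mutant culture 1, SLT2, BAG7, RLM1, MID2 and MTL1 did not pass (adjusted p from 0.0763 to 0.124). Without culture 2 the same held for MID2, BAG7 and MTL1 (adjusted p from 0.0653 to 0.082). MTL1 was also lost without culture 3 (adjusted p = 0.0932) and without wild type culture 2 (adjusted p = 0.0584).

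Chitin synthesis genes rose in 7 of 15 cases (46.7%, against 2.81% of all genes). None fell (0 of 15, against 1.16% of all genes), and the median change was 0.19. The rises began with the precursor path. GFA1, which encodes the amidotransferase that starts synthesis of UDP-N-acetylglucosamine, had 11.29, 11.44 and 11.21 with Congo Red, against 10.15, 10.42 and 10.43 untreated (0.98 ± 0.11, SE; limma adjusted p = 0.00237). PCM1, an enzyme gene of the same path, rose by 0.69 ± 0.09 (SE; limma adjusted p = 0.00517). The other enzyme genes of the path did not pass, GNA1 at -0.14 ± 0.07 and QRI1, picked after its value was seen, at -0.02 ± 0.07 (SE).

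Of the chitin synthase genes, CHS1 had 10.12, 9.94 and 10.31 with Congo Red, against 9.11, 9.21 and 9.20 untreated (0.94 ± 0.09, SE; limma adjusted p = 0.00155). CHS3, the synthase gene for most wall chitin, had 11.10, 11.22 and 11.05, against 10.46, 10.70 and 10.42 untreated (0.60 ± 0.09, SE; limma adjusted p = 0.00902). Of the genes that move Chs3 to the membrane or activate it, CHS6 rose by 0.48 ± 0.10, SKT5 by 0.47 ± 0.08 and CHS7 by 0.45 ± 0.08 (SE). CHS5, BCH1, BCH2 and BUD7, which encode the other parts of the complex that exports Chs3, did not pass, with changes of 0.00, 0.03, 0.06 and 0.19. CHS5 and BCH1 were added after their values were seen. RCR1, an endoplasmic reticulum membrane protein gene named for resistance to Congo Red and linked to chitin deposition, was outside the list and was picked after its values were seen. It had 9.04, 8.93 and 8.94 with Congo Red, against 8.26, 8.34 and 8.39 untreated (0.64 ± 0.08, SE; limma adjusted p = 0.00314). Without mutant culture 1, RCR1 (adjusted p = 0.059), PCM1, CHS3, CHS6, SKT5 and CHS7 did not pass (the last 5 from 0.0679 to 0.186). CHS7, SKT5 and CHS6 were lost without culture 2 (adjusted p from 0.0577 to 0.129), and CHS6 also without culture 3 (adjusted p = 0.0704) and wild type culture 2 (adjusted p = 0.0579).

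Among 28 genes that make or remodel glucan, 6 rose (21.4%, against 2.81% of all genes). In this list 0 fell, against 1.16% of all genes, and the median change was 0.17. CRH1, which encodes an enzyme that links chitin to glucan, had 12.32, 12.52 and 12.16 with Congo Red, against 11.35, 11.29 and 11.74 untreated (0.87 ± 0.14, SE; limma adjusted p = 0.0117). The exoglucanase gene EXG1 rose by 0.49 ± 0.07. KRE6 and SKN1, related genes of beta-1,6-glucan synthesis, rose by 0.45 ± 0.07 and 0.43 ± 0.08 (SE).

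Of 3 genes for catalytic subunits of beta-1,3-glucan synthase or their relatives, FKS1 and GSC2 rose. FKS3, added after its value was seen, did not pass (0.17 ± 0.17, SE; limma adjusted p = 0.641). FKS1, expressed in growing cells, had 12.81, 13.06 and 12.81 with Congo Red, against 12.40, 12.59 and 12.45 untreated (0.41 ± 0.07, SE; limma adjusted p = 0.0151). GSC2, the stress-inducible one, had 9.77, 9.99 and 11.58 with Congo Red, against 9.37, 9.52 and 10.71 untreated. Culture 3 was high for GSC2 in both conditions, its difference was 0.87, and those of cultures 1 and 2 were 0.40 and 0.48 (mean 0.58 ± 0.10, SE; limma adjusted p = 0.0156). All 6 rises were lost without mutant culture 1 (adjusted p from 0.0653 to 0.179). Without culture 2, GSC2, CRH1, KRE6 and FKS1 were lost (adjusted p from 0.0527 to 0.0845), and without culture 3, SKN1 (adjusted p = 0.0684).

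Wall mannoprotein genes split. Of 28 members 7 rose (25%, against 2.81% of all genes) and 4 fell (14.3%, against 1.16%), and the list's median was -0.08, against -0.03 over all genes. Besides PIR3, CWP1, PST1, HSP150 and CIS3, the rises were those of SVS1, at 11.27, 11.41 and 11.29 with Congo Red and 10.71, 10.62 and 10.16 untreated (0.83 ± 0.12, SE; limma adjusted p = 0.00772), and CCW14 (0.36 ± 0.07, SE). The falls were in TIP1, TIR1 and TIR3, members of the cold- and anaerobiosis-induced mannoprotein family, and in YGP1, a secreted glycoprotein gene. TIP1 had 10.02, 10.28 and 10.99 with Congo Red, against 10.81, 11.05 and 11.31 untreated (-0.62 ± 0.11, SE; limma adjusted p = 0.016).

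TIR1 had 9.98, 9.99 and 11.42 with Congo Red, against 10.75, 10.73 and 11.62 untreated (-0.57 ± 0.11, SE), and TIR3 differed by -0.41, -0.46 and -0.46 in cultures 1 to 3 (-0.45 ± 0.08, SE). The groups of TIR1 and TIP1 overlapped, since culture 3 was high, and those of TIR3 did not. YGP1 fell by 1.09, 0.59 and 0.26 log2 units in cultures 1 to 3 (-1.09, -0.59 and -0.26; limma adjusted p = 0.0346). CWP2, a relative of CWP1, had 13.69, 13.54 and 13.03 with Congo Red, against 13.34, 13.29 and 10.85 untreated, and did not pass, with a difference of 2.19 in culture 3 beside 0.35 and 0.25 (limma adjusted p = 0.151). Without mutant culture 1, and likewise without culture 2, CCW14, TIP1, TIR1, TIR3 and YGP1 did not pass (adjusted p from 0.135 to 0.254 and from 0.0818 to 0.134). Without culture 3 TIR3 did not (adjusted p = 0.0571). Without wild type cultures 1, 2 and 3, YGP1 did not (adjusted p from 0.0507 to 0.072), nor did CCW14 without wild type cultures 1 and 2 (adjusted p = 0.0509 and 0.072) and TIR1 without culture 2 (adjusted p = 0.0619).

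Yapsins are GPI-anchored aspartic proteases that process proteins at the cell surface. Of 6 genes 3 rose (50%, against 2.81% of all genes), YPS3, YPS6 and YPS1. YPS6 had 9.05, 9.10 and 9.07 with Congo Red, against 8.32, 8.22 and 8.19 untreated (0.83 ± 0.08, SE; limma adjusted p = 0.00126), with no overlap. YPS1 had 9.63, 10.20 and 10.54, against 9.21, 9.47 and 10.20 untreated, with overlapping groups (0.50 ± 0.09, SE; limma adjusted p = 0.0205). YPS5, MKC7 and YPS7 did not pass, at 0.30, -0.28 and 0.15. Of 26 mannosyltransferase genes 2 rose (7.69%, against 2.81% of all genes), KTR2 and KTR6, and the median was -0.05. KTR2 had 8.74, 8.72 and 8.82 with Congo Red, against 7.67, 7.60 and 7.90 untreated. YPS1 was lost without mutant cultures 1 and 2 (adjusted p = 0.128 and 0.0994) and KTR6 without cultures 1 and 3 (adjusted p = 0.148 and 0.0643).

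**Figure D3:**
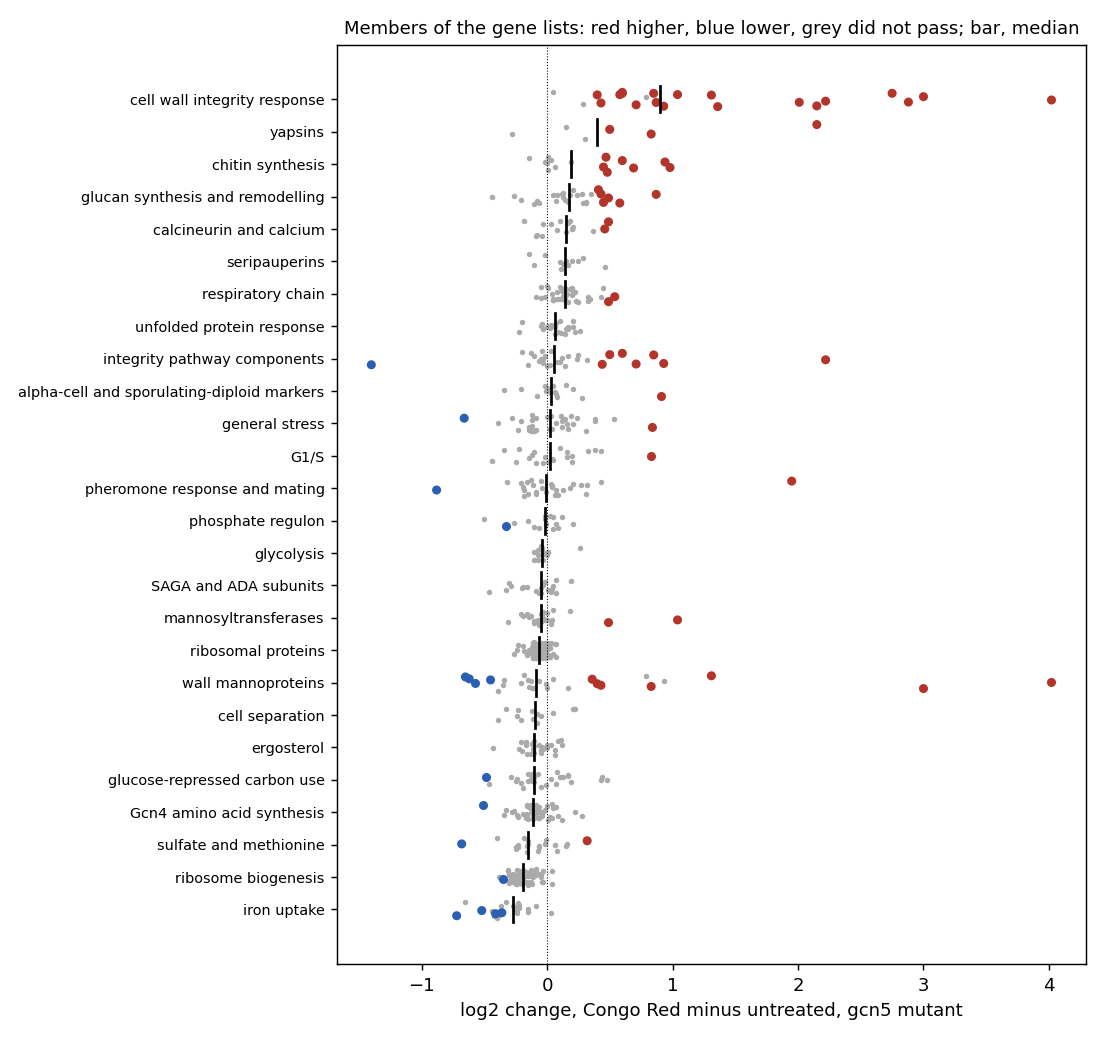
Each row is a gene list and each point a member, placed by its log2 change in the gcn5 mutant (Congo Red minus untreated), with red for higher, blue for lower, grey for not passing and a bar at the median. The integrity response row lies farthest right, with a median of 0.90, and the iron uptake row farthest left, with a median of -0.27.

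Of the 150 rises 105 were in no list, and the genes of the next sentences were picked from them after their values were seen, for their known roles. DFG5, a GPI-anchored protein gene needed for wall growth, rose by 0.86 ± 0.10 (SE). FLC1 and FLC2, which encode membrane proteins linked to wall maintenance, rose by 0.81 ± 0.15 and 0.78 ± 0.10 (SE). SSK22 and SSK1, genes of the osmotic stress kinase pathway, rose by 0.85 ± 0.09 and 0.36 ± 0.07, and MSB2, a mucin-like sensor gene, by 0.54 ± 0.08 (SE).

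SSK22 had 9.23, 9.31 and 9.45 with Congo Red, against 8.37, 8.48 and 8.58 untreated, with no overlap. ASK10, a regulator gene of the glycerol channel, rose by 0.70 ± 0.11, and RIM21, a pH sensor gene, by 0.69 ± 0.11 (SE). Genes of polarised growth included MSB3 at 0.68 ± 0.07 and MSB4 at 0.53 ± 0.07, which encode GTPase activating proteins of the secretory GTPase Sec4, and SBE2, a bud growth gene, at 0.65 ± 0.09 (SE). The calls of DFG5, SSK22 and MSB3 held without any single culture. Without mutant culture 1, FLC2, MSB4, SBE2, ASK10, RIM21, MSB2, FLC1 and SSK1 did not pass (adjusted p from 0.0643 to 0.262). RIM21, MSB2, FLC1 and SSK1 were lost without culture 2 (adjusted p from 0.0572 to 0.103), and SSK1 without culture 3 and wild type culture 2 (adjusted p = 0.0571 and 0.0561).

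After WSC4 the falls were smaller. FAR1, which encodes the cyclin-dependent kinase inhibitor of pheromone arrest, had 6.58, 6.68 and 5.73 with Congo Red, against 7.85, 7.80 and 5.97 untreated. Culture 3 was low in both conditions and fell by 0.24 (-0.24), while cultures 1 and 2 fell by 1.27 and 1.12 (-1.27 and -1.12; mean -0.88 ± 0.19, SE; limma adjusted p = 0.0352). SHU2, a recombination repair gene, had 7.33, 7.27 and 8.30, against 8.45, 8.30 and 8.49 untreated (-0.79 ± 0.16, SE; limma adjusted p = 0.0342). In both genes culture 3 differed least, by -0.24 for FAR1 and -0.20 for SHU2. YHB1, the flavohaemoglobin gene that detoxifies nitric oxide, was more even, at 11.39, 11.60 and 11.74 with Congo Red and 12.18, 12.37 and 12.29 untreated (-0.70 ± 0.08, SE; limma adjusted p = 0.00254).

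Other large falls were those of FMP48 (1.66-fold lower), HMS2, a gene similar to heat shock factors (1.64-fold), MMP1, an S-methylmethionine permease gene (1.60-fold), CIN5, a stress transcription factor gene (1.58-fold), YDR042C (1.58-fold), NUT2, a Mediator subunit gene (1.57-fold), and PRM7 (1.56-fold). YBL100W-A and YAR010C, 1.78-fold and 1.75-fold lower, belong to Ty retrotransposons with near-identical copies, so their probe sets may read several elements. Without mutant culture 1 none of the falls named in these 2 paragraphs after WSC4 passed, with adjusted p from 0.0518 for YHB1 to 0.271 for YAR010C. Without culture 2, HMS2, FMP48, PRM7, YDR042C, MMP1, SHU2, YBL100W-A and FAR1 did not pass (adjusted p from 0.0683 to 0.143). HMS2 and YAR010C were lost without culture 3 (adjusted p = 0.0704 and 0.145), and SHU2, FAR1 and YAR010C without wild type culture 1 (adjusted p from 0.0529 to 0.0619). Without wild type culture 2, YDR042C, MMP1, FAR1, YBL100W-A, SHU2 and YAR010C did not pass (adjusted p from 0.0547 to 0.073).

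**Figure D4:**
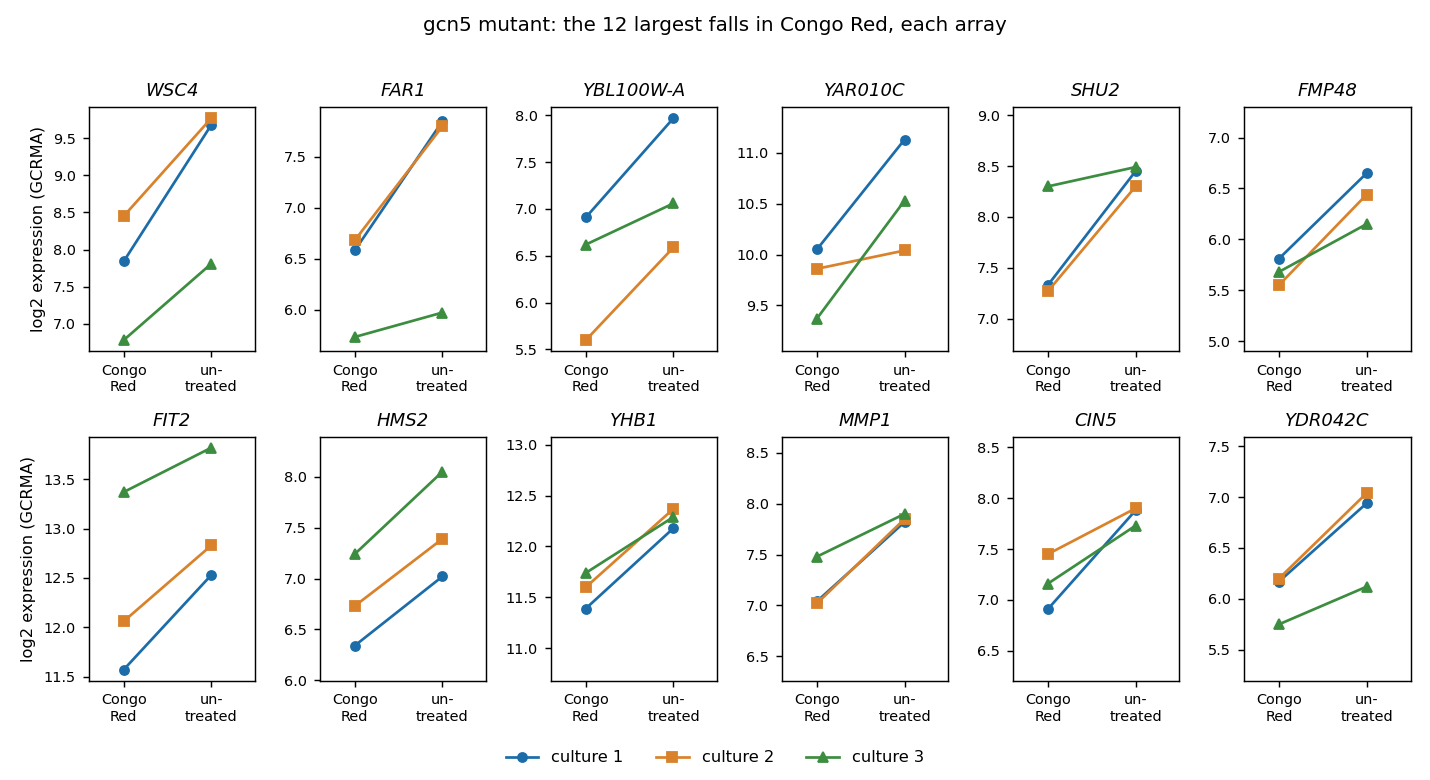
Log2 expression of the 12 largest falls on each mutant array, Congo Red left and untreated right, with a line joining the portions of a culture; each panel has its own y axis. The green line of culture 3 is nearly flat for FAR1 (5.73 with Congo Red and 5.97 untreated) and for SHU2 (8.30 and 8.49), and steep in all cultures for WSC4.

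Iron uptake genes formed the list with the largest share of falls. Of 25 members 4 fell (16%, against 1.16% of all genes) and 0 rose, 1 lay above 0, and the median change was -0.27. FIT2, a mannoprotein gene that retains siderophore iron in the wall, had 11.57, 12.06 and 13.37 with Congo Red, against 12.53, 12.83 and 13.82 untreated (-0.72 ± 0.10, SE; limma adjusted p = 0.00696). ARN2 fell by 0.71, 0.57 and 0.29 log2 units in cultures 1 to 3 (-0.71, -0.57 and -0.29; limma adjusted p = 0.0181). The iron permease gene FTR1 fell by 0.41 ± 0.09 and COT1, a vacuolar metal transporter gene, by 0.36 ± 0.07 (SE).

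Groups overlapped for all 4, and the calls rest on the pairing of cultures. The list's median change was -0.40, -0.42 and -0.13 in cultures 1 to 3. Culture 3 had the highest levels of these 4 genes in both conditions. None of the 4 passed without mutant culture 1 (adjusted p from 0.0768 to 0.333), and ARN2, COT1 and FTR1 did not without culture 2 (adjusted p from 0.0922 to 0.159). FTR1 was lost without wild type cultures 1 and 2 (adjusted p = 0.0556 and 0.0958) and COT1 without wild type culture 2 (adjusted p = 0.0689). FET3, the multicopper oxidase gene that works with Ftr1, had -0.42 ± 0.13 (SE) and did not pass (limma adjusted p = 0.115).

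Of 74 ribosome biogenesis genes 1 fell (1.35%, near the 1.16% of all genes), KRR1, by 0.35 ± 0.07 (SE), and 0 rose. Of the members 2.7% lay above 0, against 40.8% of all genes, and the median was -0.19. Of 128 ribosomal protein genes none passed, and their changes ran from -0.26 to 0.07. Of 47 Gcn4-controlled amino acid genes 1 fell (2.13%), LYS20, the homocitrate synthase gene, which had 11.98, 11.88 and 11.92 with Congo Red, against 12.42, 12.29 and 12.59 untreated. Of 18 phosphate genes 1 fell (5.56%), PHO11, by 0.33 ± 0.07 (SE). Of 21 sulfate and methionine genes MET14 rose by 0.32 ± 0.07 (SE) and MMP1 fell, 4.76% in each direction. Of 30 glucose-repressed genes 1 fell (3.33%), ATO3, by 0.49 ± 0.09 (SE). A single gene makes up each of these shares, beside 2.81% higher and 1.16% lower over all genes.

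Of 34 general stress genes HSP12, a membrane-protecting small heat shock protein gene, rose and CIN5 fell, and the list's median was 0.03. Its shares were 2.94% higher and 2.94% lower, against 2.81% and 1.16% of all genes, which is near the background. HSP12 had 12.19, 12.23 and 12.20 with Congo Red, against 11.70, 11.28 and 11.12 untreated (0.84 ± 0.19, SE; limma adjusted p = 0.0454). Its 3 treated values were nearly equal, and its untreated ones were spread. Of 39 respiratory chain genes 2 rose (5.13%, against 2.81% of all genes), and the median was 0.14. They were NDE1, an NADH dehydrogenase gene, by 0.54 ± 0.08 (SE) and CYC1 by 0.49 ± 0.11 (SE). Respiratory chain members lay above 0 in 87.2% of cases, against 40.8% of all genes. Of 17 genes of calcineurin and calcium handling 2 rose (11.8%, against 2.81% of all genes). CMK2, a calmodulin-dependent kinase gene, rose by 0.49 ± 0.08 and CMP2, a calcineurin subunit gene, by 0.46 ± 0.09 (SE).

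Of 29 pheromone and mating genes AFR1 rose and FAR1 fell, 3.45% each, against 2.81% and 1.16% of all genes. Of 22 G1/S genes SVS1 rose (4.55%, against 2.81%). Of 16 alpha-cell or sporulation marker genes tested, 1 rose (6.25%, against 2.81%). It was IME2, a meiotic kinase gene, at 8.14, 7.94 and 8.39 with Congo Red and 7.12, 7.26 and 7.35 untreated (limma adjusted p = 0.00476). The summed signal of the 10 sporulation markers was 9.84 to 10.05 with Congo Red and 9.63 to 9.72 untreated on the log2 scale. IME2 is itself among these 10, so the sum includes its rise. None of the others passed, and their changes ran from -0.21 for IME1 to 0.21 for SPO13, so the sums do not show a rise of the markers as a group. No member passed among 14 cell separation, 15 glycolysis, 27 ergosterol, 24 unfolded protein response, 21 SAGA and ADA and 12 seripauperin genes. Of the calls in these lists outside the wall, 14 were lost without mutant culture 1 (adjusted p from 0.0631 for IME2 to 0.304 for PHO11), and those of AFR1 and SVS1 were kept.

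Without culture 2, PHO11, CMK2, CYC1, MET14, ATO3, KRR1, MMP1, FAR1 and HSP12 did not pass (adjusted p from 0.082 to 0.148). Without culture 3, LYS20, CMP2, PHO11, MET14, CYC1 and HSP12 did not (adjusted p from 0.0594 to 0.162). Without wild type culture 1, KRR1, FAR1, PHO11, MET14 and CYC1 were lost (adjusted p from 0.0521 to 0.0761), and without wild type culture 2, MMP1, FAR1, KRR1, CYC1, HSP12, PHO11 and MET14 (adjusted p from 0.0643 to 0.0875).

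The Congo Red effect in the mutant was set against that in wild type by the interaction term of the same fit, for which 30 of 5345 genes passed (0.561%), 26 with a lower change in the mutant than in wild type (0.486%) and 4 with a higher one (0.0748%). At an unadjusted p under 0.05 the count was 849 (15.9%). GSC2 had the largest difference. Its Congo Red levels were 9.77, 9.99 and 11.58 in the mutant and 11.77, 12.02 and 12.10 in wild type, and its untreated levels 9.37, 9.52 and 10.71 in the mutant and 9.15, 9.51 and 9.35 in wild type. The change was 0.58 in the mutant and 2.62 in wild type, a difference of -2.04 ± 0.14 log2 units (SE; limma adjusted p = 0.00149). FKS1, the other catalytic subunit gene that rose in the mutant, changed by 0.41 in each strain, and the interaction was 0.00 ± 0.10 (SE; limma adjusted p = 0.988).

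KDX1 rose by 2.22 in the mutant and 4.19 in wild type (difference -1.98 ± 0.27, SE; limma adjusted p = 0.0234), and CRG1 by 2.01 and 3.44 (-1.43 ± 0.18, SE; limma adjusted p = 0.0192). Both stayed among the leading rises of the mutant even so. SLT2 rose by 0.85 in the mutant and 1.89 in wild type (limma adjusted p = 0.0413), and of the yapsin genes YPS6 by 0.83 and 1.63 (limma adjusted p = 0.0239) and YPS1 by 0.50 and 1.38 (limma adjusted p = 0.0285). The interaction calls of KDX1, CRG1, SLT2, YPS6 and YPS1 were each lost in at least 1 fit without a culture (highest limma adjusted p from 0.0679 for CRG1 to 0.135 for SLT2 and YPS1). For 16 of the 30 genes the mutant's own change did not pass. AFB1, known as a barrier to a-factor, had 5.70, 5.70 and 5.49 with Congo Red and 6.03, 5.88 and 5.21 untreated in the mutant, and rose by 1.42 in wild type (interaction -1.50 ± 0.18, SE; limma adjusted p = 0.0138). SPI1, a GPI-anchored wall protein gene, changed by -0.11 in the mutant and 1.05 in wild type (limma adjusted p = 0.00967).

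Other leading rises did not differ by this test, which does not show that they are equal. The interaction was -0.15 ± 0.21 for SRL3 and -0.16 ± 0.17 for AFR1 (SE), and 0.75 ± 0.19 for PRM5 and 1.51 ± 0.33 for CWP1 (SE), with limma adjusted p from 0.0951 for CWP1 to 0.758 for SRL3. CWP1 and PRM5 had the larger point estimate in the mutant, at 3.00 and 2.88, against 1.48 and 2.12 in wild type. PIR3, PRM10, PST1 and YPS3 had the smaller one, with interactions of -1.15 ± 0.35, -0.87 ± 0.16, -0.54 ± 0.16 and -0.53 ± 0.20 (SE). Their limma adjusted p ran from 0.0655 for PRM10 to 0.25 for YPS3. Of the 18 genes at least 2-fold higher in the mutant, 14 had a smaller change there than in wild type. The same held for 117 of the 150 called higher. WSC4 fell in both strains, by 1.40 in the mutant and 0.73 in wild type (-1.40 and -0.73; interaction adjusted p = 0.164).

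Of the 150 genes higher in the mutant, 144 also passed as higher in wild type, where 12.3% of all genes did. Of the 62 lower in the mutant, 41 also passed as lower in wild type, where 11.5% did. The tests of both strains share the same estimate of spread for each gene. Their calls are therefore not independent, and the shares over all genes are not chance rates for this overlap. The medians of the genes called in the mutant were 0.58 there and 0.86 in wild type for the rises. For the falls they were -0.50 and -0.41. These values describe genes picked on the mutant's own change. Of the 90 genes at least 2-fold higher in wild type, picked on wild type values, 58 rose in the mutant and 18 did so at least 2-fold. The interaction calls of GSC2, BAG7 and YPL088W held without any single culture of either strain. Without the culture block the interaction passed for BAG7, YPL088W and HAL1 (limma adjusted p from 0.00129 to 0.00765). It did not pass for GSC2 (limma adjusted p = 0.556), whose call rests on the pairing of cultures. Of the 30 calls, 11, 8 and 23 held without mutant cultures 1, 2 and 3 (highest adjusted p 0.179, 0.0892 and 0.0747). Without wild type cultures 1, 2 and 3 there were 11, 3 and 10 (highest adjusted p 0.142, 0.169 and 0.131).

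**Figure D5:**
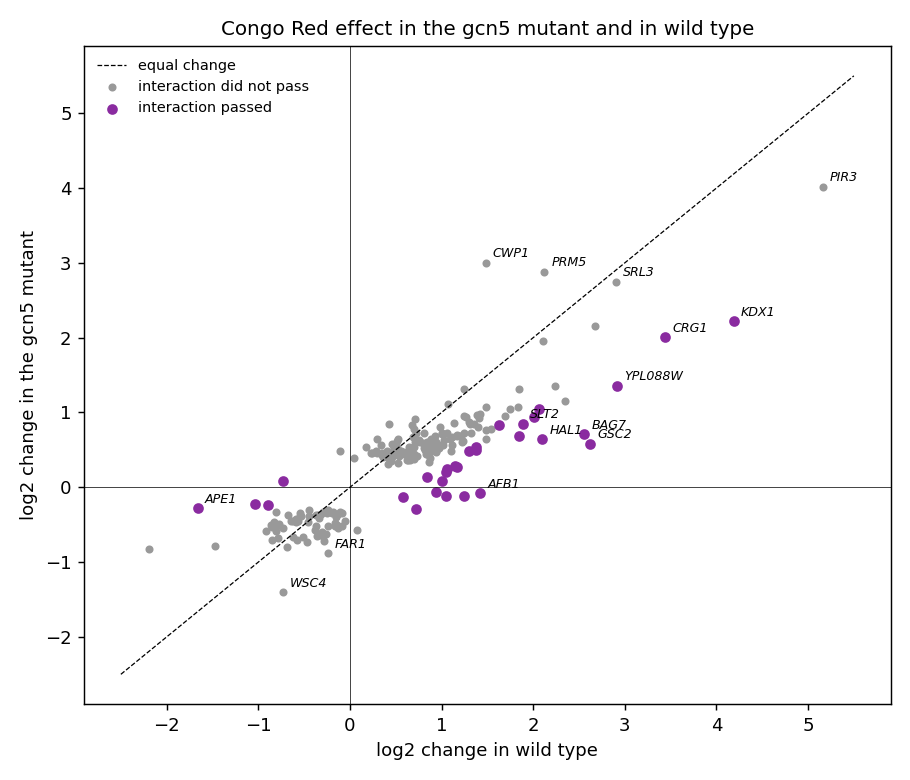
Each point is a gene that passed in the mutant or in the interaction, with its log2 Congo Red change in wild type on the x axis and in the gcn5 mutant on the y axis; the dashed line marks equal change and purple points passed the interaction test. GSC2 (0.58 in the mutant and 2.62 in wild type) and KDX1 (2.22 and 4.19) lie far below the line, and CWP1 (3.00 and 1.48) lies above it without passing.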

How the data were processed

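Each array's deposited file holds a log2 expression value for every probe set. Per the submitters' processing notes the authors used GCRMA, with the version not given in the sources used here. As a method it models background from probe sequence and normalizes arrays by quantiles, so a shift of all transcripts together would not be seen. Of 5716 probe sets 5498 had 1 gene symbol. For the 47 genes with several, the set with the highest mean was used. This left 5449 genes, and the 5345 over log2 4 on at least 3 of 12 arrays were tested.

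limma 3.58.1 in R 4.3.3 was fitted to all 12 arrays with the 6 cultures as a fixed block and a Congo Red term per strain, which leaves 4 residual degrees of freedom. P-values were adjusted by Benjamini-Hochberg over 5345 genes with a threshold of 0.05, also for the interaction. The pairing rests on the labels' divided cultures. Deviations from group means correlated at 0.84, 0.57 and 0.79 between mutant arrays of equal number and at 0.53, 0.74 and 0.67 in wild type. Unmatched arrays of mutant cultures 1 and 2 gave 0.33 and 0.26, so the match of these cultures is less clear. All unmatched pairs with mutant culture 3 were negative, and unmatched wild type arrays ran from -0.64 to -0.01. Taking deviations from a mean of 3 arrays by itself pushes unmatched values downward. Nothing in the labels says that the cultures of a group were grown independently, so p-values measure the spread between these samples, and precision is set by the small number of arrays. The fit was checked on simulated data with normal noise of equal spread in both strains. That simulation held no culture that stood apart as mutant culture 3 does, so it does not cover that feature.

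Arrays, the 26 gene lists and tests were chosen with earlier results of these data known. The text names the 20 largest rises, the 15 largest falls, the genes nearest 2-fold, passing list members, up to 3 others per list and the largest interactions. Genes picked otherwise are said to be. Names were updated through RefSeq R64. Alternatives covered pairing, scaling, filters, floor, probe sets, variance prior and each culture left out. No sequences or coordinates were used, so a planned promoter motif search was not run.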

Additional observations from a re-analysis of the deposited data

Results flagged for a closer look

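The interaction of strain and Congo Red passed for 30 genes, and each value below is the Congo Red change in the mutant minus that in wild type, in log2 units. Among genes of the wall and its signalling these were GSC2 -2.04, KDX1 -1.98, BAG7 -1.85, SPI1 -1.15, SLT2 -1.04, KTR2 -1.02, YPS1 -0.88, EXG2 -0.87, YPS6 -0.80. All of these but SPI1 and EXG2 also passed as higher in the mutant. Among other genes that rose in the mutant they were YPL088W -1.56, HAL1 -1.46, CRG1 -1.43, RTA1 -1.15, YPK2 -1.07, YKE4 -0.84, YIL108W -0.80. Among genes outside the wall with no call of their own in the mutant they were AFB1 -1.50, YSR3 -1.36, NCA3 -1.01, NQM1 -1.0, PDE1 -0.93, YMR315W -0.84, ATP22 -0.81, IAH1 -0.71, SDS24 -0.70. YMR315W-A had -0.89, but all 6 of its mutant arrays lay under log2 4, so its mutant change is not measured. The values above 0 belonged to SDA1 0.66, YLR363W-A 0.82, FAF1 0.82, APE1 1.38, where wild type fell and the mutant did not pass.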

How the results depend on the processing

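None of the 212 calls in the mutant and none of the 30 interaction calls turned its sign under the alternatives run. Changes that did not pass could do so, as PIR1 did at -0.04 without mutant culture 1 and -0.10 without culture 2, and AFB1 at 0.05 without culture 1. Without a replicate block, 58 genes were higher, 4 lower, 0 at least 2-fold lower and 3 passed the interaction, and 150 of the 212 mutant calls were lost. With the culture as a random replicate block 69 passed the interaction, and 157 of the 212 mutant calls held. With the stricter filter of log2 6, 53 passed the interaction. With an intensity trend in the variance prior 139 genes were lower and 95 passed the interaction. Other counts under these settings, and all under median centring, no dim filter, a floor of log2 4, averaged probe sets or the 6 mutant arrays alone, stayed within 1.5 times the counts given.

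Leaving out single cultures gave 28 to 171 genes higher, 1 to 98 lower, 13 to 24 at least 2-fold higher, 1 to 6 at least 2-fold lower, and 3 to 33 for the interaction. A fit without a mutant culture has 2 pairs for that strain. The counts of genes higher and lower were lowest without mutant culture 1, and that of the interaction without wild type culture 2. The fits without a wild type culture were added after the data were seen. No depth is defined for these arrays. Levels near log2 4, such as those of BAG7 untreated, bear only a floor.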
